A study of Homo sapiens with 6 samples.

Results

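Ribosome biogenesis factors and subunits of RNA polymerases I and III were examined by RNA-seq in Huh7, a long-established line of human liver cancer (hepatocellular carcinoma) cells. The members were picked out by gene symbol, as every row whose symbol begins with or equals one of a fixed set of names. The names were the NOP, NOL, NOC, RRP, UTP, EXOSC, POLR1 and POLR3 families and single factors such as BOP1, FBL and NCL. The set was chosen with earlier results of these data known. These symbols covered 71 rows of 69 genes among 10191 rows in all, each row being 1 RefSeq transcript. The knockdown group was 3 libraries of Huh7 cells that carried a short hairpin RNA against ABL1, a non-receptor tyrosine kinase, and the other group was 3 libraries of Huh7 cells with a scrambled hairpin. Both groups had been through puromycin selection, and RNA was taken 1 week later. The sources used here give neither the hairpin sequence nor the number of hairpins, so a single line and possibly a single hairpin stand for the knockdown. The labels do not say whether the 3 libraries of a group came from separate cultures, and p-values therefore measure only library-to-library spread, part or all of which may be technical.

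Ribosome production begins in the nucleolus, where RNA polymerase I transcribes the long precursor of the ribosomal RNAs, while RNA polymerase III makes the short RNA of the large subunit and the transfer RNAs. Small nucleolar ribonucleoproteins (snoRNPs) modify the precursor, the small-subunit processome and a succession of large-subunit assembly factors fold and cleave it, and the RNA exosome trims it from the 3′ end. Many of these genes are known targets of the transcription factor MYC, which binds the E-box CACGTG, and dividing tumour cells depend on a high output of ribosomes.

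Read counts were recovered from the deposited values, and a level is given as a normalized count, the recovered reads on the authors' own scale between libraries. The recovered depth ran from 6651413 to 7952645 reads in the knockdown libraries and from 7713451 to 10487862 in the scrambled libraries. The targeted gene fell in the row with more scrambled reads, ABL1 NM_007313, which had 13.7, 10.2 and 9.28 normalized counts in the knockdown libraries, against 73.4, 71.7 and 71.3 in the scrambled libraries (limma, log2 change -2.62, SE 0.26, adjusted p = 4.11e-06). The other ABL1 row, NM_005157, had 17.6, 19.2 and 24.8 in the knockdown libraries, against 9.17, 6.72 and 10.3 in the scrambled libraries (log2 change 1.15, adjusted p = 0.018); with both rows added, ABL1 fell by 1.33 on the log2 scale (adjusted p = 0.000116). MYC had 574, 550.4 and 608 normalized counts in the knockdown libraries, against 2228, 2161 and 2352 in the scrambled libraries (log2 change -1.96, SE 0.08, adjusted p = 3.05e-09), and its part in the members' values was not tested. Of 9 hepatocyte and hepatoma markers, 6 were in the table, with summed levels of 368145 to 418305 normalized counts in the knockdown and 453551 to 521149 in the scrambled libraries. Fibroblast markers (5 of 6 in the table, mostly COL1A2) summed to 12965 to 14302 in the knockdown and 8638 to 9569 in the scrambled libraries. Of these, COL1A1 fell and the others rose. Endothelial markers (3 of 4) summed to 114 to 138 in the knockdown and 159 to 173 in the scrambled libraries. Among them, CDH5 and PECAM1 fell and VWF rose. Immune cell markers (2 of 4, nearly all LYZ) summed to 6526 to 7467 in the knockdown and 5679 to 6298 in the scrambled libraries. The part of all these markers in the results was not tested.

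Most of the members that changed were lower in the knockdown cells. Of 65 member rows with a mean of at least 10 normalized counts, 31 fell and 7 rose at an adjusted p below 0.05 (limma, Benjamini-Hochberg over all 8600 transcripts tested), and 27 did not pass. Falls made up 47.7% of the members tested, beside 27.4% of all transcripts tested. Rises made up 10.8% of the members, beside 24.5% of all transcripts, and calls in either direction 58.5%, beside 51.9%. Members were also more abundant than the table as a whole, with a median mean count of 535 against 191, and falls were more frequent among abundant transcripts. At a mean of 10 to 400 normalized counts, 12 of 28 members fell (42.9%), beside 20.7% of all transcripts at that level. At 400 to 1000 it was 13 of 25 (52%), beside 36.3%, and above 1000 it was 6 of 12 (50%), beside 40.5%. The member medians at these levels were -0.23, -0.26 and -0.21, beside 0.086, -0.074 and -0.095 over all transcripts. The 3 knockdown and 3 scrambled values did not overlap for 41 members (63.1%), beside 58.9% of all transcripts. Falls of at least 2-fold were called for 7 of 65 members (10.8%), beside 9.02% of all transcripts, and rises of that size for 0, beside 7.92%. Among these falls, EXOSC2 and EXOSC9 rest on few reads. The member median was -0.24 on the log2 scale (interquartile range -0.53 to 0.08), beside 0.0018 over all transcripts tested (interquartile range -0.44 to 0.43). The 6 rows under 10 normalized counts, of NOP16, POLR3B, one EXOSC7 transcript, TCOF1, GAR1 and the pseudogene NOC2LP2, were not tested.

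**Figure D1:**
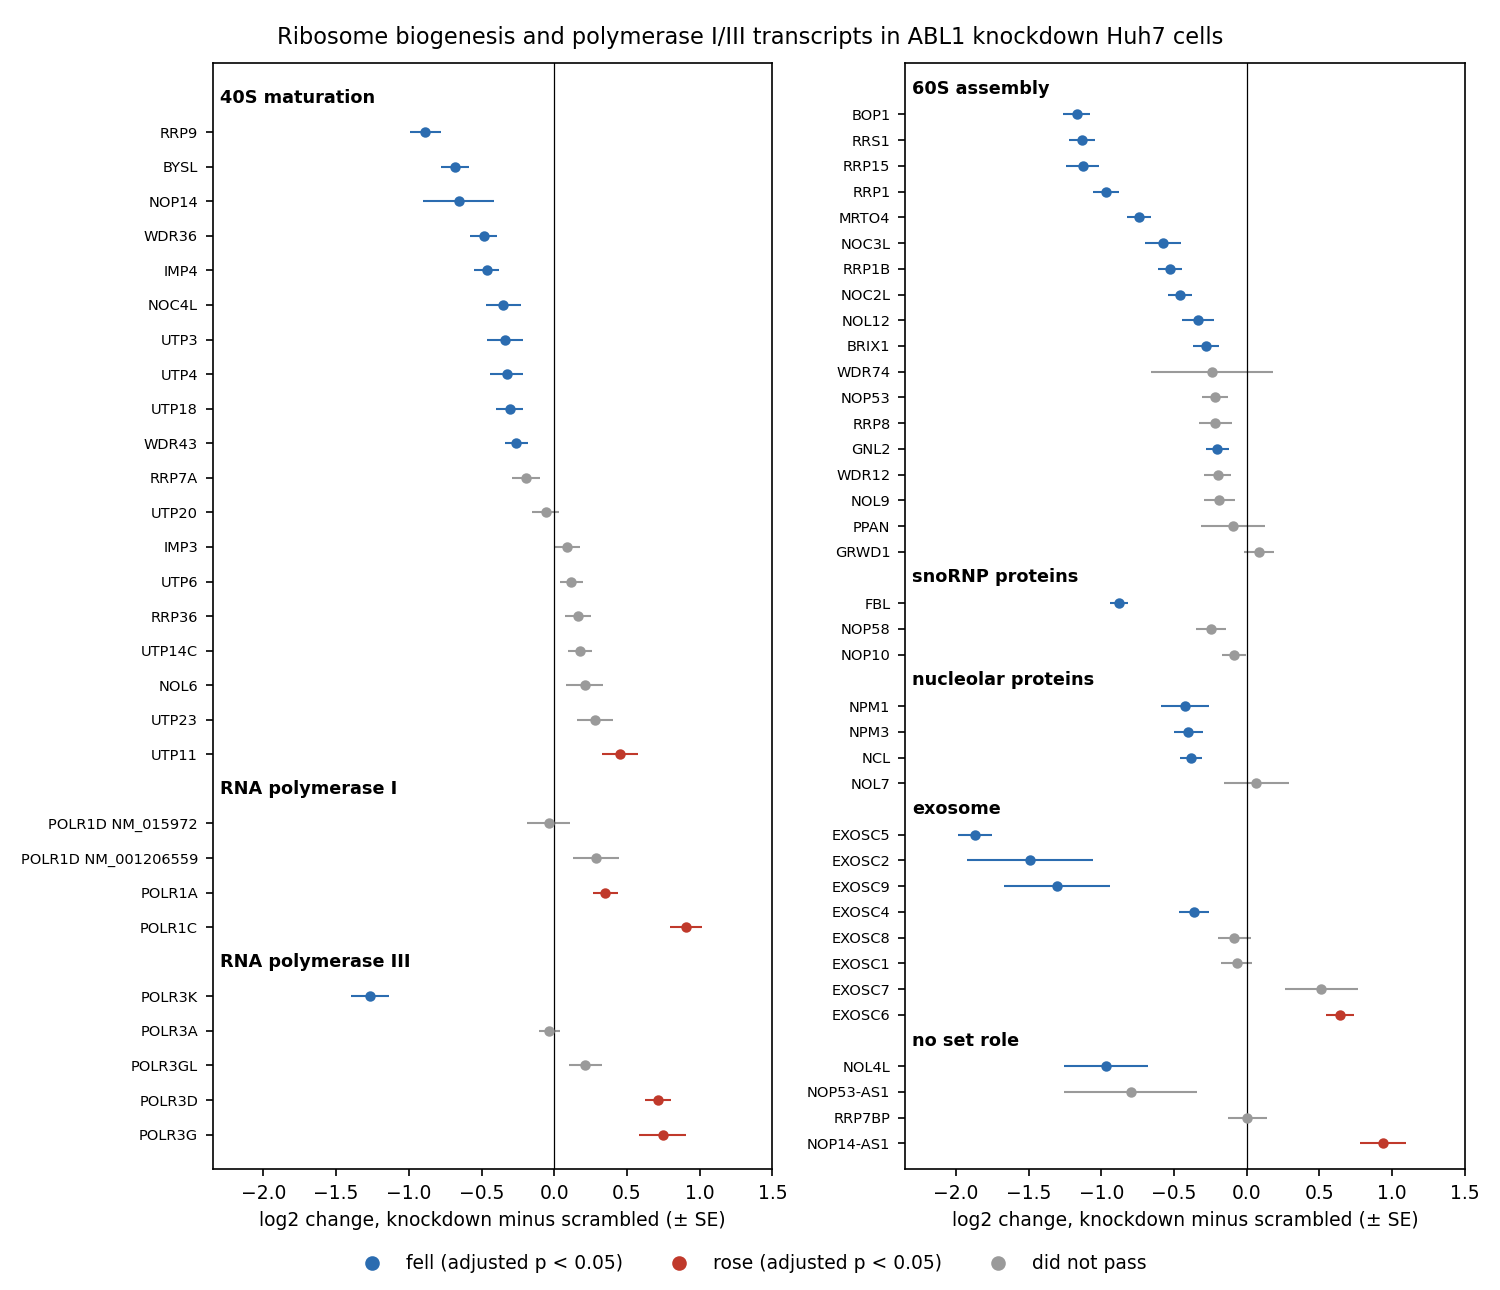
Log2 change (knockdown minus scrambled) of every tested member, arranged by role. Bars are ± SE, and colour gives the call. Large-subunit factors lie mostly left of 0 and include BOP1 at -1.17, while POLR1C at 0.91 and POLR3D at 0.71 lie right of it.

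The balance of the calls depended on how the libraries were scaled. The authors' scale leaves the knockdown libraries with smaller totals, 7517864 to 7779025 normalized counts, against 8573339 to 8744039 in the scrambled libraries. With totals made equal, the median of all transcripts moved up to 0.18, and the members gave 19 falls (19.6% of all transcripts fell) and 17 rises (34.6% of all transcripts rose). With quantile normalization they gave 22 falls (24.8% of all transcripts) and 10 rises (26.7% of all transcripts). Relative to the median of all transcripts, the member median lay lower by a similar amount each time, at -0.24 on the authors' scale, -0.25 with equal totals and -0.18 with quantile normalization. All 7 rises passed under each of these scalings, as did 19 or more of the 31 falls.

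Summed over members, the knockdown libraries held 7389, 7333 and 7432 CPM (normalized counts scaled to an equal total in every library), against 8119.7, 8055 and 7921 in the scrambled libraries. These sums did not overlap. They do not use the authors' scale, but they amount to scaling with equal totals, so they depend on what else makes up each total. Abundant members weigh most in them. NCL and NOP53 averaged 10612 and 10178.5 normalized counts in the knockdown, against 13848 and 11875 in the scrambled libraries. The snoRNP proteins alone summed to 546, 579.6 and 547 CPM in the knockdown libraries, against 768, 816 and 788 in the scrambled libraries. NOP58 and NOP10 did not pass, and this lower sum was mostly FBL, at 2834 normalized counts in the knockdown and 5211 in the scrambled libraries. In the opposite direction, RNA polymerase I subunits summed to 352, 337 and 344 CPM in the knockdown libraries, against 225, 254 and 223 in the scrambled libraries. RNA polymerase III subunits were likewise higher, at 432, 441 and 413 CPM in the knockdown libraries, against 324, 341 and 327 in the scrambled libraries. POLR3D made the largest gain, averaging 1442 normalized counts in the knockdown and 881 in the scrambled libraries. POLR3G also rose, POLR3K fell, and POLR3A and POLR3GL did not pass. Small-subunit factors overlapped on this measure, with 1299, 1333 and 1356 CPM in the knockdown libraries, against 1307, 1304 and 1328 in the scrambled libraries. On the authors' scale their sums did not overlap, at 10102.5, 10024 and 10466 normalized counts in the knockdown libraries, against 11431, 11271 and 11382 in the scrambled libraries. In bulk libraries such as these, fewer cells that express a gene and less RNA per cell cannot be told apart.

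**Figure D2:**
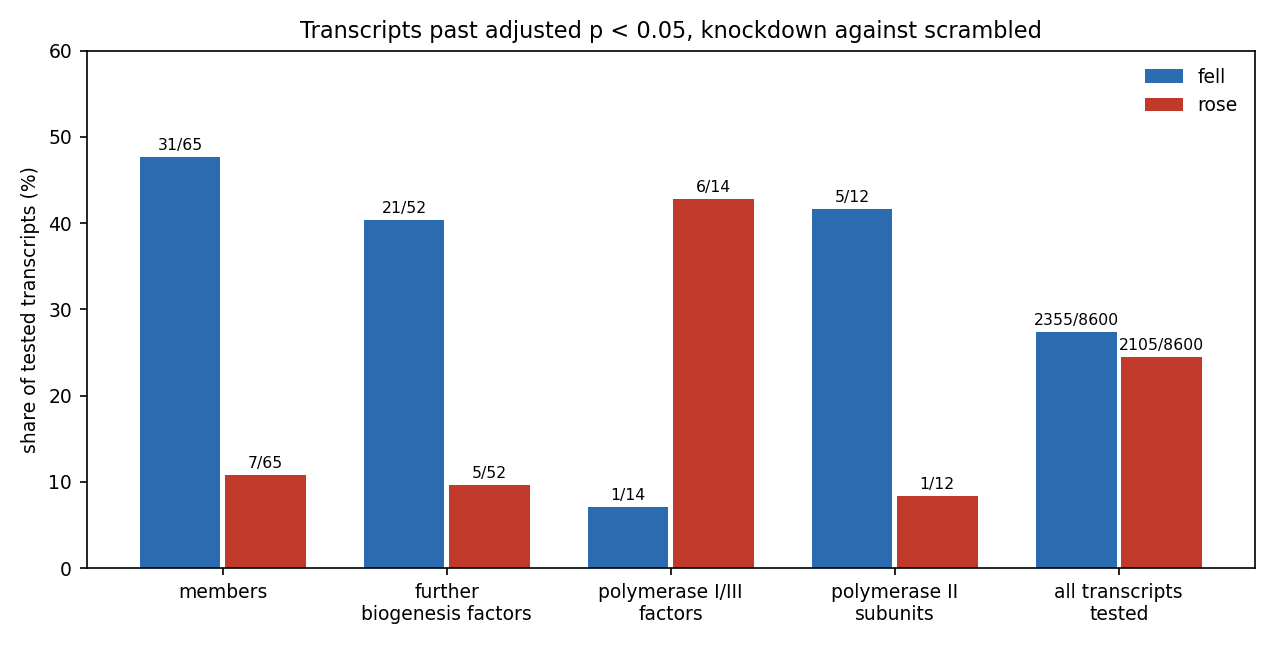
Share of tested transcripts (%) that fell or rose, for the members, for 3 lists of related genes outside the symbol rule and for all transcripts tested; the numbers on the bars are transcripts called of transcripts tested. Members show 31 falls and 7 rises of 65, and the polymerase I and III factors show 1 fall and 6 rises of 14.

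The E-box was found more often in promoters of members that fell than in promoters at large. RefSeq promoter windows of GRCh38.p14, from 250 bases before to 50 bases after a RefSeq start base, were matched by symbol for 57 of the 69 member genes. Among the members left without a window were BOP1, RRS1, RRP1B and EXOSC4, which fell, and POLR3D and POLR3G, which rose. The rises with a window included the non-coding NOP14-AS1. The E-box CACGTG, which reads the same on both strands, lay in 17 of 57 member promoters (29.8%), beside 10.4% of the 6390 tested genes with a window and 7.43% of all 27305 windows. Divided by call, it lay in 12 of 27 promoters of members that fell (44.4%), in 5 of 22 of those that did not pass (22.7%) and in 0 of 5 of those that rose. Over all tested genes the shares were 11.9% for those that fell, 9.90% for those that did not pass and 9.79% for those that rose. These shares are descriptions with no test, since the genes of a pathway are not independent replicates, and a match is not a bound site.

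The printed windows run 5′ to 3′ on the gene's own strand, in lower case with each E-box in capitals. EXOSC5, RRP9, FBL and MRTO4 were picked as the lowest log2 changes among members that fell and held an E-box. Other members had lower log2 changes than RRP9 and no E-box in their windows. These were EXOSC2 (-1.49), EXOSC9 (-1.31), POLR3K (-1.27), RRP15 (-1.13), NOL4L (-0.97) and RRP1 (-0.97). BOP1 (-1.17) and RRS1 (-1.13) were lower than RRP9 too, but had no matched window to search. EXOSC5 lies at chr19:41397310-41397609 (minus strand) and was the member with the lowest log2 change; its 2 E-boxes begin 89 bases before and at base 15 after the start. RRP9 lies at chr3:51941855-51942154 (minus strand), with an E-box from 5 bases before the start. FBL lies at chr19:39846330-39846629 (minus strand) and MRTO4 at chr1:19251555-19251854 (plus strand), with E-boxes from base 7 and base 15 after the start. POLR1C, at chr6:43516839-43517138 (plus strand), was added as a member that rose, and no E-box was found in its window.
EXOSC5: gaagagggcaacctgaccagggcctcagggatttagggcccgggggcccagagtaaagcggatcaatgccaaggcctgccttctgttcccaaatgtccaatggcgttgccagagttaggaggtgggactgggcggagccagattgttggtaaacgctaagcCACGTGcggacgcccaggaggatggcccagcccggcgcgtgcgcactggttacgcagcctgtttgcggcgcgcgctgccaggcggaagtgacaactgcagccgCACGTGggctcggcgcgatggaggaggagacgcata
RRP9: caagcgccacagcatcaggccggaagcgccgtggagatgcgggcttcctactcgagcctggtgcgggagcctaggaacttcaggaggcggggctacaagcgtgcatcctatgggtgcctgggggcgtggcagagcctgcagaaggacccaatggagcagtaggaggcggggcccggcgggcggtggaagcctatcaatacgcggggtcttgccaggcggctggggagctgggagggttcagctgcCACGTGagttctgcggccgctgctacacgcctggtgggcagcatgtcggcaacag
FBL: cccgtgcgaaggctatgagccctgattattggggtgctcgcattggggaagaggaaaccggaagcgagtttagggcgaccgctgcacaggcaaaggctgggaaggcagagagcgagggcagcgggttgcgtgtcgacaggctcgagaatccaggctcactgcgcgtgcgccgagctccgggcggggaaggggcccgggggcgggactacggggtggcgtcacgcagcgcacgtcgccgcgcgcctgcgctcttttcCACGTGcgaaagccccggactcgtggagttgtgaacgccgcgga
MRTO4: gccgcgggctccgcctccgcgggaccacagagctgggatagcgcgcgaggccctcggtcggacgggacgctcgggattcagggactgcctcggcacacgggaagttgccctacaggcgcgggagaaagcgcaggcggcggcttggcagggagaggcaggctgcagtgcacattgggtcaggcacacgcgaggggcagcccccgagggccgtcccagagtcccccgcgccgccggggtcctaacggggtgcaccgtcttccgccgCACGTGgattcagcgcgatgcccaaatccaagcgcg
POLR1C: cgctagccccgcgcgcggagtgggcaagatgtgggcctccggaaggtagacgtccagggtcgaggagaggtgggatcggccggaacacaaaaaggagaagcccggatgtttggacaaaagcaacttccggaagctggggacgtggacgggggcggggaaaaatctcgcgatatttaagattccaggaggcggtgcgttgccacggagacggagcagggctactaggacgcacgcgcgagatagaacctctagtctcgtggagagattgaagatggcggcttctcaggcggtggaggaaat

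Other motifs were searched in the same windows. The core CCGGAAG of ETS-family sites, searched on both strands, lay in 21 of 57 member promoters (36.8%), beside 18.5% of tested genes and 10.7% of all windows. Divided by call, it lay in 11 of 27 promoters of members that fell (40.7%), beside 17.3% of all tested genes that fell, in 7 of 22 of those that did not pass (31.8%), beside 18.8%, and in 1 of 5 of those that rose (20%), beside 19.3%. TCGCGA, a palindrome, lay in 6 of 57 (10.5%), beside 5.79% of tested genes and 3.16% of all windows. GCGCATG, taken from the site of NRF1 and searched on both strands, lay in 4 of 57 (7.02%), beside 7.28% of tested genes and 4.67% of all windows. The median GC content was 62.3% over the member windows and 65.3% over those of tested genes. None of these motifs contains the E-box or lies within it.

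**Figure D3:**
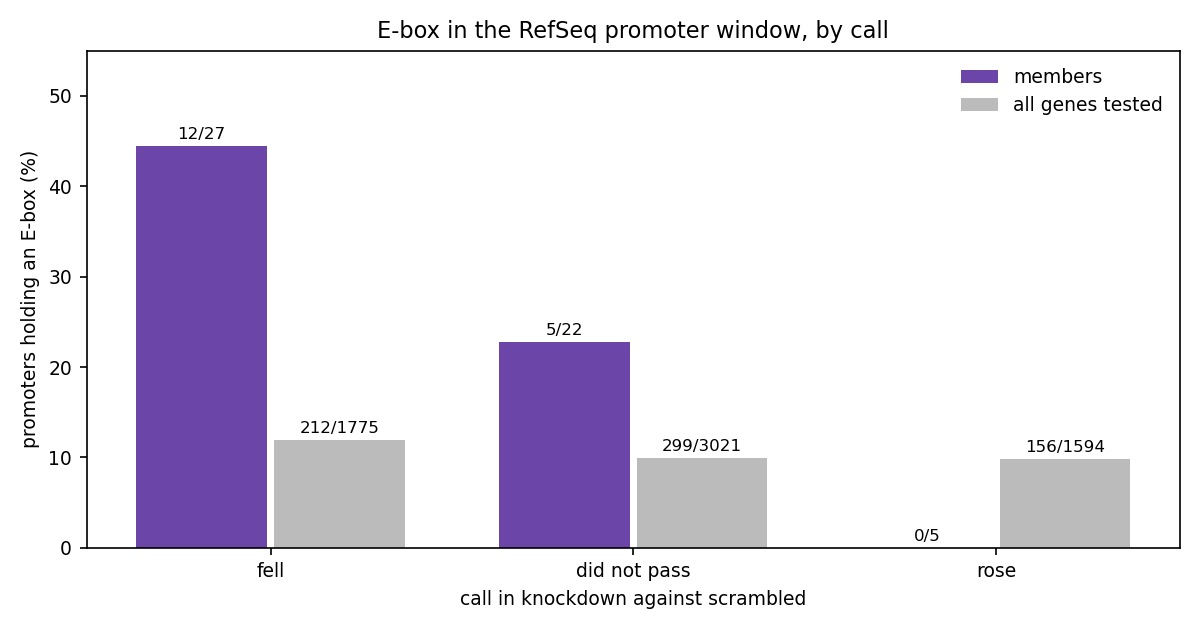
Share of RefSeq promoter windows (%) that hold the E-box, by the call of the gene, for members and for all genes tested; the numbers on the bars are windows with the motif of windows in the group. Members that fell reach 12 of 27, and members that rose 0 of 5.

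Among the large-subunit factors, 11 of 18 tested members fell (61.1%, beside 27.4% of all transcripts) and 0 rose (beside 24.5%). The group median was -0.31 (limma), and 0 also rose at an unadjusted p below 0.05. At 400 to 1000 normalized counts, where the median levels of this group and of the small-subunit factors lay, 36.3% of all transcripts fell. BOP1 (NM_015201), which works with PES1 and WDR12 in cleaving the precursor on its way to the large-subunit RNAs, had 956, 932 and 1132 normalized counts in the knockdown libraries, against 2444, 2128 and 2208 in the scrambled libraries (log2 change -1.17, SE 0.09, adjusted p = 5.52e-07). RRS1 (NM_015169), which helps bring the 5S ribonucleoprotein into the nascent subunit, had 421, 431 and 466 in the knockdown libraries, against 1043, 904 and 944 in the scrambled libraries (log2 change -1.13, SE 0.09, adjusted p = 6.66e-07). Every knockdown value of both genes was below every scrambled value. RRP15 (NM_016052), a nucleolar processing factor, had 255, 257 and 207 in the knockdown libraries, against 491, 535 and 542 in the scrambled libraries (log2 change -1.13, SE 0.11, adjusted p = 4.11e-06). RRP1 (NM_003683), a nucleolar protein needed late in large-subunit processing, had 425, 404 and 477 in the knockdown libraries, against 855, 842 and 850.1 in the scrambled libraries (log2 change -0.97, SE 0.09, adjusted p = 2.4e-06). The groups were again apart, with the scrambled values of RRP1 close together.

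MRTO4 (NM_016183), which holds the place of a stalk protein on the immature large subunit, averaged 578 ± 32.6 normalized counts in the knockdown and 965 ± 33.9 in the scrambled libraries (SD, n = 3 each; log2 change -0.74, SE 0.08, adjusted p = 1.24e-05). RRP1B, the paralogue of RRP1, averaged 1270.1 ± 73.2 in the knockdown and 1833 ± 159 in the scrambled libraries (log2 change -0.53, adjusted p = 0.000216). NOC2L, a nucleolar protein also known to inhibit histone acetylation, averaged 1976 ± 181 in the knockdown and 2708 ± 140.0 in the scrambled libraries (log2 change -0.46, adjusted p = 0.000559), and it shares 378 exonic bases on the opposite strand with SAMD11, which rose. NOC3L, a partner of NOC2L in the pre-ribosome, fell too (log2 change -0.57, adjusted p = 0.00196). Smaller falls were called for NOL12 (-0.34), BRIX1 (-0.28) and GNL2 (-0.20), and each of these calls was lost when totals were made equal and when at least 1 single library was left out. The 7 members that did not pass were WDR74, NOP53, RRP8, WDR12, NOL9, PPAN and GRWD1, with log2 changes from -0.24 to 0.08. WDR12, the partner of BOP1, averaged 599 ± 46.5 in the knockdown and 688 ± 46.6 in the scrambled libraries (log2 change -0.20, 95% interval -0.40 to 0.0047). The ratio of BOP1 to WDR12 was 1.69 ± 0.291 in the knockdown libraries, against 3.31 ± 0.478 in the scrambled libraries, and the 2 groups of ratios did not overlap.

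**Figure D4:**
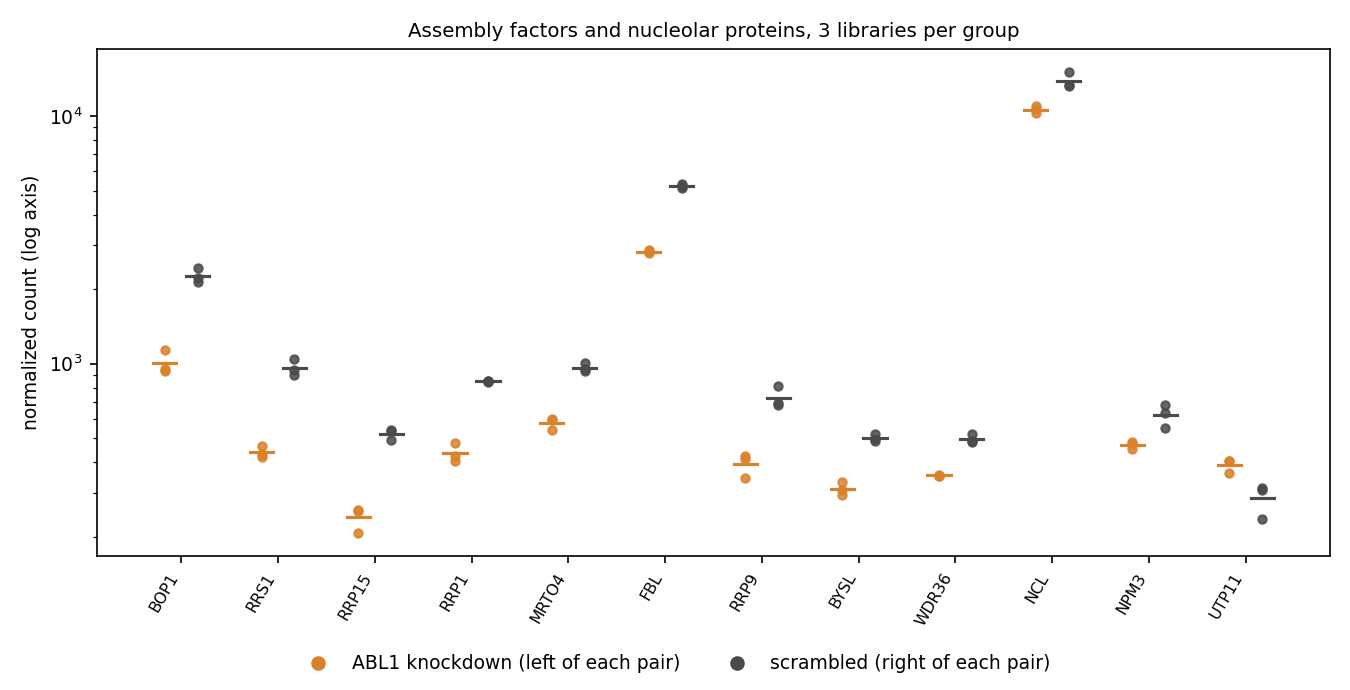
Normalized counts (log axis) of 12 assembly factors and nucleolar proteins in each library; points are libraries, bars are means of 3, and the knockdown stands left of the scrambled group. For 11 of the genes the knockdown points lie below the scrambled ones, and UTP11, at 390.3 ± 22.8 in the knockdown and 287 ± 43.7 in the scrambled libraries, lies above.

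Small-subunit factors fell in 10 of 19 tested members (52.6%, beside 27.4% of all transcripts) and rose in 1 (5.26%, beside 24.5%), with a group median of -0.26. This balance was not kept with equal totals, where 4 fell (beside 19.6% of all transcripts) and 7 rose (beside 34.6%). RRP9 (NM_004704), a protein of the U3 snoRNP that guides the early cleavages, had 425, 346 and 412 normalized counts in the knockdown libraries, against 811, 694 and 681 in the scrambled libraries (log2 change -0.89, SE 0.11, adjusted p = 2.34e-05). BYSL (NM_004053), a late assembly factor of the small subunit, had 308, 295 and 333 in the knockdown libraries, against 488, 497 and 519 in the scrambled libraries (log2 change -0.68, SE 0.10, adjusted p = 8.13e-05). Neither gene had overlapping groups. IMP4, another U3-associated protein, averaged 837 ± 56.4 in the knockdown and 1155 ± 84.8 in the scrambled libraries (log2 change -0.46, adjusted p = 0.000705), and WDR36, a processome subunit, averaged 354 ± 2.80 in the knockdown and 496 ± 19.9 in the scrambled libraries (log2 change -0.49, adjusted p = 0.00073).

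The remaining falls in the small-subunit group were those of NOP14, NOC4L, UTP3, UTP4, UTP18 and WDR43, with log2 changes from -0.66 to -0.26. All 6 were lost with equal totals, and the number of falls in the group ran from 5 to 8 when single libraries were left out, lowest without scrambled replicate 1. UTP11 (NM_016037), a subunit of the same processome, moved the other way, with 364, 404 and 403 normalized counts in the knockdown libraries, against 237, 310.5 and 314 in the scrambled libraries (log2 change 0.45, SE 0.12, adjusted p = 0.00898). The 8 members that did not pass, RRP7A, UTP20, IMP3, UTP6, RRP36, UTP14C, NOL6 and UTP23, had log2 changes from -0.20 to 0.28. UTP14C shares 4100 exonic bases with ALG11 on the same strand, so its reads and those of ALG11 cannot be told apart here. NOP14 was low, at 31.2 ± 1.81 in the knockdown and 50.6 ± 10.9 in the scrambled libraries, and shares exons with an antisense gene described below.

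Of the 3 snoRNP proteins tested, FBL alone passed (33.3%, beside 51.9% of all transcripts called in either direction). FBL (NM_001436), the methyltransferase of the box C/D snoRNPs, had 2866, 2845 and 2789.6 normalized counts in the knockdown libraries, against 5209, 5291 and 5131 in the scrambled libraries (log2 change -0.88, SE 0.06, adjusted p = 3.24e-07). The values within each group were close together and the groups stood well apart. NOP58, a core protein of the same particles, averaged 739 ± 44.5 in the knockdown and 879 ± 120.0 in the scrambled libraries (log2 change -0.24, 95% interval -0.47 to -0.02, adjusted p = 0.0664), and it passed without scrambled replicate 1, which gave 2 falls in the group. NOP10, of the box H/ACA particles that make pseudouridine, averaged 697 ± 27.2 in the knockdown and 740.4 ± 10.9 in the scrambled libraries (log2 change -0.09, 95% interval -0.26 to 0.09). The ratio of FBL to NOP58 was 3.84 ± 0.264 in the knockdown libraries, against 5.99 ± 0.765 in the scrambled libraries, and that of FBL to NOP10 was 4.07 ± 0.157 in the knockdown libraries, against 7.04 ± 0.150 in the scrambled libraries, without overlap in either case.

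The nucleolar proteins gave 3 falls among 4 tested members (75%, beside 27.4% of all transcripts, group median -0.39), and 1 fall with equal totals or quantile normalization. NCL (nucleolin, NM_005381), which binds the nascent precursor, had 10921, 10634 and 10282 normalized counts in the knockdown libraries, against 13327, 14998 and 13219 in the scrambled libraries (log2 change -0.38, SE 0.07, adjusted p = 0.000838); under quantile normalization it did not pass (log2 change -0.13, adjusted p = 0.0914). NPM3, a relative of nucleophosmin, averaged 469.9 ± 16.8 in the knockdown and 623 ± 66.5 in the scrambled libraries (log2 change -0.40, adjusted p = 0.00463), and did not pass with equal totals (adjusted p = 0.0698). The NPM1 row is 1 of several transcripts of nucleophosmin, a chaperone that shuttles between nucleolus and cytoplasm, and its groups overlapped, with 170.2, 222 and 164 in the knockdown libraries, against 201, 304 and 246 in the scrambled libraries (log2 change -0.42, adjusted p = 0.0477). The NPM1 call was lost when any of 4 single libraries was left out, with log2 changes from -0.57 to -0.27 over all 6 omissions. NOL7 did not pass (log2 change 0.07, adjusted p = 0.825).

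Of 4 rows with POLR1 symbols, the RNA polymerase I group here, 2 rose (50%, beside 24.5% of all transcripts) and 0 fell (beside 27.4%). With limma, 0 also fell at an unadjusted p below 0.05. POLR1C (NM_203290), shared by RNA polymerases I and III, had 545, 505 and 507 normalized counts in the knockdown libraries, against 271, 317 and 245 in the scrambled libraries (log2 change 0.91, SE 0.11, adjusted p = 2.59e-05). POLR1A (NM_015425), the largest and catalytic subunit, had 1685, 1466 and 1694 in the knockdown libraries, against 1301, 1321 and 1173 in the scrambled libraries (log2 change 0.35, SE 0.09, adjusted p = 0.00416). Both genes were higher in every knockdown library than in any scrambled library. POLR1D, also shared by both enzymes, had 2 rows, and neither passed: NM_015972 averaged 319 ± 42.9 in the knockdown and 329.9 ± 63.6 in the scrambled libraries (log2 change -0.04, adjusted p = 0.845), and NM_001206559 averaged 188 ± 29.1 in the knockdown and 154 ± 23.5 in the scrambled libraries (log2 change 0.29, adjusted p = 0.152). The second POLR1D row passed with equal totals, at 0.46 (adjusted p = 0.0304). The ratio of POLR1C to POLR1A was 0.322 ± 0.0228 in the knockdown libraries, against 0.219 ± 0.0182 in the scrambled libraries. POLR1C shares 127 exonic bases on the opposite strand with an antisense gene in the GENCODE 29 annotation of GRCh38, where its transcript lies at chr6:43517022-43521526, plus strand.

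RNA polymerase III subunits split by gene, with 2 of 5 tested members higher (40%, beside 24.5% of all transcripts) and 1 lower (20%, beside 27.4%). POLR3K (NM_016310), a small subunit needed for transcript cleavage and termination, had 199, 147 and 157 normalized counts in the knockdown libraries, against 404, 408 and 391 in the scrambled libraries (log2 change -1.27, SE 0.13, adjusted p = 4.39e-06). POLR3D (NM_001722), a subunit that works in termination and reinitiation, had 1505, 1433 and 1389 in the knockdown libraries, against 943, 918 and 782 in the scrambled libraries (log2 change 0.71, SE 0.09, adjusted p = 2.59e-05). POLR3G (NM_006467), which fills the same place in the enzyme as its paralogue POLR3GL, had 184, 210.2 and 173 in the knockdown libraries, against 90.0, 127 and 123 in the scrambled libraries (log2 change 0.75, SE 0.16, adjusted p = 0.00193). None of these 3 genes had overlapping groups, and POLR3K stood in the opposite direction to the other 2. POLR3A, the catalytic subunit, averaged 1154 ± 21.9 in the knockdown and 1181 ± 42.3 in the scrambled libraries (log2 change -0.03, 95% interval -0.19 to 0.13), and POLR3GL had a log2 change of 0.21 (95% interval -0.03 to 0.46).

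Ratios between subunits within a library do not depend on the scaling. The ratio of POLR3K to POLR3D was 0.132, 0.103 and 0.113 in the knockdown libraries, against 0.429, 0.444 and 0.501 in the scrambled libraries, a log2 difference of -1.99. That of POLR3G to POLR3GL was 0.581 ± 0.0447 in the knockdown libraries, against 0.401 ± 0.0492 in the scrambled libraries. All pairs were picked after the values were known, and an exact permutation test of 3 against 3 libraries cannot give a p below 0.1, so the ratios are given as descriptions. POLR3K lies at chr16:46407-53628, minus strand (GRCh38), and 153 of its exonic bases are shared on the opposite strand with SNRNP25, which also fell (log2 change -0.29).

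**Figure D5:**
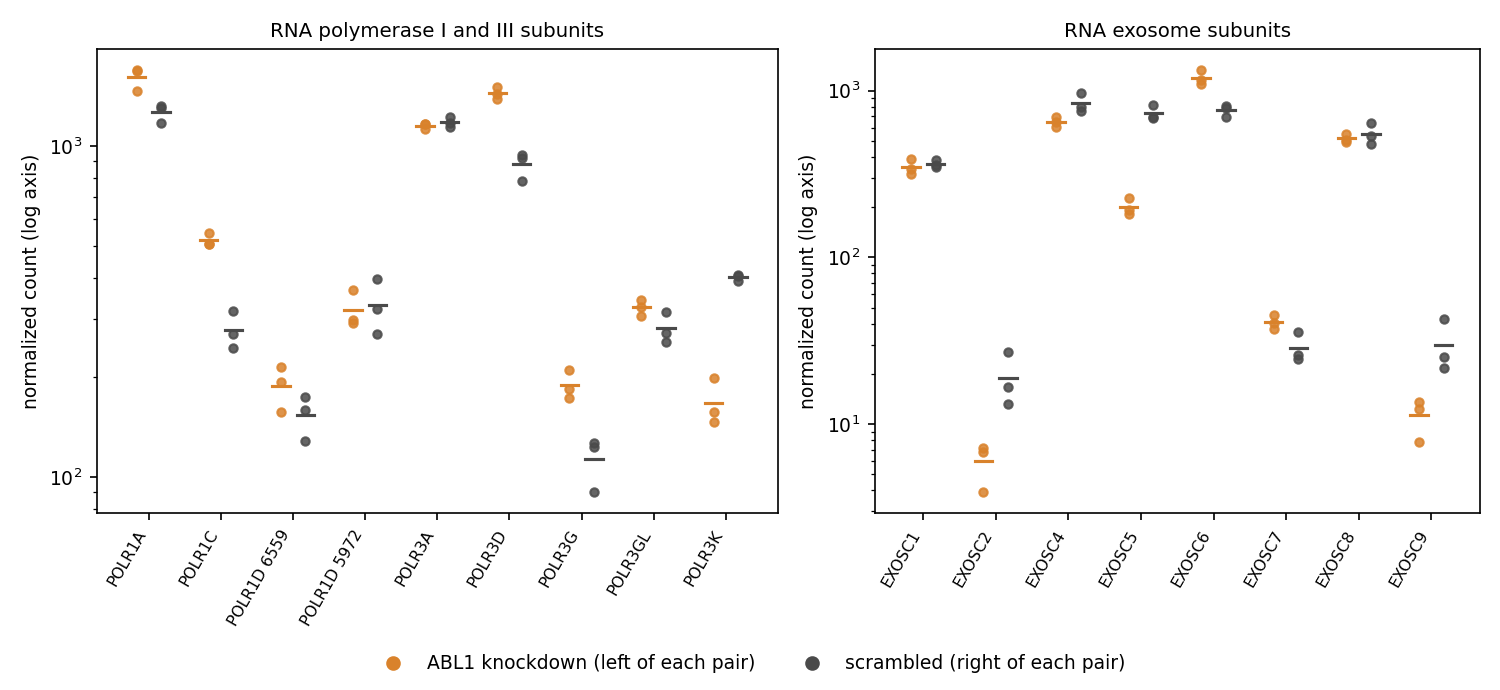
Normalized counts (log axis) of RNA polymerase I, RNA polymerase III and exosome subunits in each library; points are libraries, bars are means of 3, and the knockdown stands left of the scrambled group. POLR1C, POLR3D, POLR3G and EXOSC6 are higher in all knockdown libraries, and POLR3K and EXOSC5 are lower.

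The exosome showed the widest spread of any of the role groups, from -1.87 to 0.64. It had 4 falls (50%, beside 27.4% of all transcripts) and 1 rise (12.5%, beside 24.5%) among 8 tested members. EXOSC5 (NM_020158), a subunit of the ring, had 181, 191 and 227 normalized counts in the knockdown libraries, against 816, 694 and 682 in the scrambled libraries (log2 change -1.87, SE 0.12, adjusted p = 9.3e-08), and was 3.66 times lower. EXOSC6 (NM_058219), another subunit of the same ring, had 1163, 1089.6 and 1324 in the knockdown libraries, against 808, 694 and 791 in the scrambled libraries (log2 change 0.64, SE 0.10, adjusted p = 0.000127). Each gene had non-overlapping groups, in opposite directions. Per kilobase of exon, EXOSC5 averaged 179 ± 21.6 normalized counts in the knockdown and 654 ± 66.5 in the scrambled libraries, while EXOSC6 averaged 231 ± 23.2 in the knockdown and 148 ± 11.9 in the scrambled libraries. Of this pair, EXOSC6 was therefore the higher per length in the knockdown cells and EXOSC5 in the scrambled cells. The ratio of EXOSC5 to EXOSC6, before length, was 0.167 ± 0.0105 in the knockdown libraries, against 0.958 ± 0.0826 in the scrambled libraries, a log2 difference of -2.51.

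EXOSC5 lies at chr19:41386374-41397479, minus strand (GRCh38), sharing 20 exonic bases on the opposite strand with BCKDHA, and the single-exon gene EXOSC6 lies at chr16:70246778-70251930, minus strand, without such sharing. EXOSC4, also of the ring, averaged 652 ± 45.8 normalized counts in the knockdown and 840.3 ± 111 in the scrambled libraries (log2 change -0.36, adjusted p = 0.0114); it did not pass without scrambled replicate 1 (log2 change -0.25, adjusted p = 0.0529) or with equal totals (log2 change -0.19, adjusted p = 0.134). EXOSC8 of the ring and EXOSC1 of the cap did not pass, at -0.09 (95% interval -0.33 to 0.16) and -0.07 (95% interval -0.31 to 0.17). The other called falls rest on few reads, and without scrambled replicate 2 the exosome had 2 falls, with neither of these among them. The non-coding EXOSC2 row had 4, 6 and 7 reads in the knockdown libraries, against 20, 24 and 14 in the scrambled libraries (log2 change -1.49, adjusted p = 0.0116). EXOSC9 had 8, 12 and 12 reads in the knockdown libraries, against 26, 38 and 27 in the scrambled libraries (log2 change -1.31, adjusted p = 0.00933; without scrambled replicate 2, -1.03, adjusted p = 0.0529), and it shares 142 exonic bases on the opposite strand with CCNA2, which fell (log2 change -0.93). The tested EXOSC7 row is non-coding and did not pass (log2 change 0.51, adjusted p = 0.107).

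The symbol rule also took in 5 rows with no set role in ribosome production. NOP14-AS1 (NR_015453), a non-coding RNA antisense to NOP14, had 268, 238 and 304 normalized counts in the knockdown libraries, against 112, 148 and 166 in the scrambled libraries (log2 change 0.94, SE 0.16, adjusted p = 0.000342). Its values were higher in every knockdown library, whereas those of NOP14 were lower. The ratio of NOP14-AS1 to NOP14 was 8.63 ± 0.555 in the knockdown libraries, against 2.92 ± 0.970 in the scrambled libraries. The sources do not state the strand setting of the counting, and the genes share exonic bases, so reads of the shared stretch cannot be assigned to one of them. NOL4L fell at a low level, 34.1 ± 11.4 in the knockdown and 66.7 ± 17.7 in the scrambled libraries (log2 change -0.97, adjusted p = 0.0133), and did not pass without scrambled replicate 3 (log2 change -0.79) or without knockdown replicate 2 (-0.71). NOP53-AS1 (-0.80) and the pseudogene RRP7BP (0.01) did not pass. Leaving out all 4 tested rows of this kind gave 30 falls (49.2%, beside 27.4% of all transcripts) and 6 rises (9.84%, beside 24.5%) among 61 members with a set role.

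Related genes outside the symbol rule were read in the same fit, in lists also chosen with earlier results of these data known. Of 52 tested transcripts of further ribosome biogenesis factors, 21 fell (40.4%, beside 27.4% of all transcripts) and 5 rose (9.62%, beside 24.5%), with a median of -0.21 and a median mean count of 521. The lowest was RUVBL1, an ATPase of the R2TP complex that assembles box C/D snoRNPs, which averaged 376 ± 15.9 normalized counts in the knockdown and 1566 ± 129 in the scrambled libraries (log2 change -2.05, SE 0.09, adjusted p = 4.65e-09). PIH1D1, of the same complex, averaged 955 ± 21.7 in the knockdown and 2016 ± 119 in the scrambled libraries (log2 change -1.08, adjusted p = 2.34e-07), and TBL3, a processome subunit, had a log2 change of -0.72, adjusted p = 6.45e-05. Rises were called for MPHOSPH10, a U3 snoRNP protein that binds IMP3 and IMP4 (2766 ± 134 in the knockdown and 1524 ± 103 in the scrambled libraries, log2 change 0.86, adjusted p = 1.62e-06), for TSR2 (0.42, adjusted p = 0.00024), LSG1 (0.22, adjusted p = 0.0321) and SBDS (0.26, adjusted p = 0.0262), and for PELP1 at few reads (1.35, adjusted p = 0.0209). LSG1 and SBDS act in the last, cytoplasmic steps of the large subunit. Over the 6 omissions of a single library the rises of this list numbered 3 to 4, and the PELP1 call was lost when any of 4 single libraries was left out, at 1.07 to 1.23.

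Transcription factors of RNA polymerases I and III gave 6 rises (42.9%, beside 24.5% of all transcripts) and 1 fall (7.14%, beside 27.4%) among 14 tested, with a median of 0.14. The 14 include TWISTNB, whose RefSeq symbol is POLR1F, a subunit of RNA polymerase I and not a transcription factor. It did not pass (limma, log2 change 0.11, adjusted p = 0.541), and it is not in the group of POLR1 symbols above. BRF2, a subunit of TFIIIB at promoters of the U6 type, averaged 895 ± 37.5 normalized counts in the knockdown and 465 ± 45.6 in the scrambled libraries (log2 change 0.95, SE 0.10, adjusted p = 4.32e-06). SNAPC3, of the complex that binds small nuclear RNA promoters, averaged 978 ± 38.9 in the knockdown and 628 ± 60.4 in the scrambled libraries (log2 change 0.64, adjusted p = 8.75e-05), and GTF3C6, of TFIIIC, had a log2 change of 0.51, adjusted p = 0.00126. MAF1, the repressor of RNA polymerase III, averaged 3972 ± 322 in the knockdown and 3129 ± 406 in the scrambled libraries (log2 change 0.35, adjusted p = 0.00867). SNAPC1 (0.54, adjusted p = 0.00809) and, at few reads, BRF1 (1.09, adjusted p = 0.0317) also rose. GTF3A, the factor specific to the 5S RNA genes, was the one fall, averaging 721 ± 17.8 in the knockdown and 1011 ± 17.5 in the scrambled libraries (log2 change -0.49, adjusted p = 0.000196). RNA polymerase II subunits, taken as rows with POLR2 symbols, gave 5 falls (41.7%, beside 27.4%) and 1 rise (8.33%, beside 24.5%) among 12 tested. The median was -0.21. Some of these symbols, POLR2L among them, name subunits that RNA polymerases I and III also contain. Log2 changes (limma) were -0.57 for POLR2L (adjusted p = 8.31e-05), -0.53 for POLR2C (adjusted p = 8.71e-05) and -0.32 for the catalytic subunit POLR2A (adjusted p = 0.00155). The rise was that of POLR2J4 (0.29, adjusted p = 0.0474), a non-coding row and so not the transcript of a subunit. It is 1 of a family of near-identical copies whose reads may be split. The POLR2J4 call was lost when any of 5 single libraries was left out, at 0.21 to 0.32. With equal totals POLR2A did not pass (-0.15, adjusted p = 0.0594), and RNA polymerase II subunits gave 2 falls and 2 rises.

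Few RNA polymerase III products were in the table, and none of those tested passed. RPPH1, at a mean of 9.40 normalized counts, lay under the filter and was not tested. Processed non-coding RNA is poorly measured by this kind of library, so these values do not show the output of RNA polymerase III. The signal recognition particle RNA RN7SL1 had 7186, 2662 and 7374 normalized counts in the knockdown libraries, against 8141, 6289 and 545 in the scrambled libraries (log2 change 0.78, adjusted p = 0.412). Its near-identical copy RN7SL2 had 9119, 3951 and 8844 in the knockdown libraries, against 9566, 6819 and 971 in the scrambled libraries (log2 change 0.78, adjusted p = 0.319), and both were lowest in scrambled replicate 3. The groups overlapped for both, and reads may be split between these copies. RN7SK had 19.6, 18.1 and 36.1 in the knockdown libraries, against 19.2, 19.1 and 17.8 in the scrambled libraries (adjusted p = 0.454), and BCYRN1 had a log2 change of 1.12, adjusted p = 0.0692.

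Members differed in how well the table could measure them. The 44 rows of genes with 1 RefSeq transcript had a median mean count of 694, and 22 of 43 tested fell and 5 rose. For the 26 rows of genes with more RefSeq transcripts the median was 161, with 9 falls and 2 rises of 22 tested. Exonic bases were shared with another gene in 32 of the 69 rows that could be placed on GENCODE 29. Without those rows, an alternative chosen after the data had been seen, 17 of 35 tested members fell (48.6%) and 5 rose (14.3%), with a median of -0.24. Over all transcripts tested, 27.4% fell and 24.5% rose.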

How the data were processed

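RNA-seq of Huh7 cells gave 6 libraries, 3 per group, assigned to group and replicate by their titles. The deposited table holds 1 signal value per RefSeq transcript and library, which the authors computed before deposit; no column of another sample was present. The submitters' processing notes name HISAT2 2.0.4, HTSeq 0.6.1 and genome build hg38 without saying what each did. Which annotation and strand setting were used, and how reads shared by transcripts were treated, is not given in the sources, and the deposited signal may therefore miss reads that transcripts or genes share. From the values, each squared deposited signal, divided by a step that is constant within its library, is 0.375 above a whole number, within a tolerance of 0.05 reads for 100% of rows. The normalized count is the recovered reads times the library's relative step. Since the unit is a transformed signal, no count model was used.

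Transcripts with a mean of at least 10 normalized counts were tested with limma 3.58.1 in R 4.3.3 (a linear model with empirical Bayes variances that follow the mean level). The two-sided test ran on log2 of the normalized count plus 1, and a call needed a Benjamini-Hochberg adjusted p below 0.05 among all 8600 transcripts. The log2 scale with its pseudocount understates changes of transcripts with few reads. Values are mean ± SD with n = 3 per group, and intervals are 95% intervals from the fit. Tables were handled with pandas 2.3.3 in Python 3.11.15. Recovery and fit were tested on simulated data. No pair of libraries within a group agreed within sampling noise. Correlations between libraries ran from 0.984 to 0.988 within groups and from 0.94 to 0.951 between them, and 69.9% of the variance lay on the first principal component.

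The members and gene lists were chosen with earlier results of these data known. Named genes were ABL1, MYC, the members of each role group called with the smallest p (up to 4 falls), all members that rose or changed at least 2-fold, genes with more than 1 tested row, and up to 3 genes called in each direction in each further list; others were named after their values were seen. Alternatives changed the pseudocount, the filter, the scaling, the variance model and the threshold, added a replicate block, summed reads per gene, left out each library and left out members with shared exons. Identifiers were matched to RefSeq for 97.8% of rows. Promoter sequences are from RefSeq (GRCh38.p14) and exons from GENCODE 29 (GRCh38).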

Additional observations from a re-analysis of the deposited data

How the results depend on the processing

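No call of a member changed direction under the alternatives run, and all 7 rises were called in each alternative that refitted the full set of single transcripts; leaving out members with shared exons kept 5 rises among 35 tested members. With equal totals, falls among members numbered 19 and rises 17; by group, small-subunit factors had 4 falls and 7 rises, large-subunit factors 1 rise, exosome members 2 rises, nucleolar proteins 1 fall, further factors 13 falls, and RNA polymerase II subunits 2 falls and 2 rises, and the member median was -0.070. With quantile normalization, small-subunit factors had 5 falls and 4 rises, nucleolar proteins 1 fall, and the member median was -0.15. At a threshold of 0.01, members had 18 falls, small-subunit factors 4, exosome members 2 and rows with no set role 0, and rises numbered 2 among further factors and 0 among RNA polymerase II subunits. Exosome falls numbered 2 with a mean of at least 50; RNA polymerase II rises numbered 2 with median-of-ratios scaling and 0 with no filter. Without exon overlap, which leaves fewer members, 17 fell.

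The replicate numbers did not pair the samples: deviations from the group means correlated at 0.0471, 0.0765 and 0.0768 for equal numbers. A replicate block gave 33 falls and 7 rises among members, 2 falls among snoRNP proteins and 2 rises among RNA polymerase II subunits, and changed no other count by over 1.5 times. When each library was left out, member falls ran from 24 to 27, beside 2055 to 2209 falls over all transcripts. Small-subunit falls then ran from 5 to 8, exosome falls from 2 to 4, falls with no set role from 0 to 1 and snoRNP falls from 1 to 2. Rises of further factors ran from 3 to 4 and rises of RNA polymerase II subunits from 0 to 1, beside 1838 to 1959 rises over all transcripts. The member median ran from -0.26 to -0.19. ABL1 NM_005157 reversed to -1.33 when reads were summed per gene, since both rows are then added. Causes of the other moves were not tested. No value was given by EXOSC2, EXOSC9 and NOP14 with a mean of at least 50, or by EXOSC2 without scrambled replicate 2, since they lay under the filter. Few reads limit the precision of the rows with the lowest means, among them NOP53-AS1, EXOSC2, WDR74, EXOSC9, EXOSC7, NOP14 and NOL4L.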
